A study of Mus musculus with 15 samples.

Results

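Mucins and the enzymes that build their sugar chains were followed through the epithelium of the mouse uterus, in 105 genes of the 28269 that the deposited tables list. The genes were taken by name: the numbered mucins (Muc, without Muc1), the polypeptide GalNAc transferases (Galnt), the branching (Gcnt, Mgat), extending (B3gnt, B3galt, B4galt, B4galnt), sialylating (St3gal, St6gal, St8sia) and fucosylating (Fut) enzymes, and the carbohydrate sulfotransferases (Chst). They carry 104 symbols, because St6galnac2 has 2 entries that share exon bases, and 1 entry, Galnt6os, is an antisense RNA of Galnt6. RNA was sequenced from the surface lining of the lumen (luminal epithelium, LE) and from the glands beneath it (glandular epithelium, GE), all on day 4. Wild-type mice gave 3 LE and 3 GE libraries, labelled Ctrl. Mice labelled as overexpressing the receptor Notch1 gave 3 LE and 3 GE libraries under the name E-OEX, and 3 LE libraries under the name U-OEx. The labels do not expand these names, and the strain, the age, the transgene, its driver and any pooling of animals are not given in the sources used here.

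Mucins are long glycoproteins whose serines and threonines carry dense O-linked sugar chains. A Galnt enzyme starts each chain with GalNAc, core and branching enzymes of the Gcnt family and the galactose and GlcNAc transferases lengthen it, and sialic acid, fucose or sulfate caps it. The Mgat enzymes build the antennae of N-linked chains, which the same extending and capping enzymes complete. In the uterus this coat covers the luminal surface that an embryo meets at implantation, and surface mucin is known to decline there as the uterus becomes receptive.

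The tables differ in what they list, and this decides what can be compared. Wild type was listed for 6414 genes and E-OEX for 4903, in each case genes whose GE and LE means differ by about 2-fold or more, and U-OEx for 27946 genes with no such selection. Among the members, 59 were listed in wild type, 44 in E-OEX, 104 in U-OEx and 35 in all 3, and a gene outside a list was not analysed there. Of the 104 U-OEx members, 63.5% were also listed in wild type or E-OEX, against 28.8% of all U-OEx genes. Sialylation had the largest listed share in wild type, 14 of 19 members, and no N-glycan branching enzyme was listed in E-OEX.

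The wild-type libraries held between 3818041 and 4797424 reads in listed genes. The E-OEX libraries held 1980800 to 3494859 and the U-OEx libraries, over many more genes, 13541644 to 14981505. Notch1 was listed in U-OEx alone, so the genotype labels could not be checked on it. Summed luminal markers (3 of 4 listed) were 12887 to 13687 in wild-type LE and 212 to 297 in wild-type GE, and summed glandular markers (8 of 8) were 49.7 to 102 and 31844 to 54924. In E-OEX the luminal sums (3 of 4) were 7964 to 14966 in LE and 556 to 1724 in GE, and in U-OEx LE (4 of 4) 8178 to 11518, so each LE and GE group held its own markers. E-OEX GE replicate 1 stood apart, with the highest luminal sum, 1724 against 585 and 556 in replicates 2 and 3. Nothing says that the libraries came from separate animals, so SDs and p-values describe the spread between libraries.

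Values below are scaled read counts, that is, the reads of a gene divided by 1 factor per library, in the order of replicates 1 to 3. Fold changes between genotypes are log2(value + 1) differences after the reads of the shared genes were rescaled together, and adjusted p-values are from limma with a threshold of 0.05 over all genes tested. With 3 libraries against 3, an exact permutation test of a single gene could not go below p = 0.1.

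Promoter sequence is shown for 4 genes whose LE values differed between genotypes: the neighbouring mucins Muc4 and Muc20, the sialyltransferase St6gal1 and the branching enzyme Gcnt4. Each line gives the 250 bases before a RefSeq start (GRCm38.p6), 5′ to 3′ on the gene's strand, at chr16:32735636-32735885 (+) for Muc4, chr16:32797436-32797685 (−) for Muc20, chr16:23290220-23290469 (+) for the most downstream of 3 St6gal1 starts, and chr13:96924463-96924712 (+) for Gcnt4. Capitals mark TGGGAA, the core of the motif bound by RBPJ, the DNA-binding partner of Notch, searched on both strands. The longer form GTGGGAA, which contains the shorter one, was searched likewise, and on the other strand the shorter one appears as TTCCCA.
Muc4: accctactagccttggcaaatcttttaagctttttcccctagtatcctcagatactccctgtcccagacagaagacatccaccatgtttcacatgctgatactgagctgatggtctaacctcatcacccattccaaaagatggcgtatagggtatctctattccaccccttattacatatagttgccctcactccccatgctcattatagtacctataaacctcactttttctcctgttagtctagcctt
Muc20: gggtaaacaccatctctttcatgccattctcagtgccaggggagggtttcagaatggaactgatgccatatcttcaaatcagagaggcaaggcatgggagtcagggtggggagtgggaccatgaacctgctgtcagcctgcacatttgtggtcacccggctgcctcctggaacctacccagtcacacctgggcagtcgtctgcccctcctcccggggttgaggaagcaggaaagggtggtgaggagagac
St6gal1: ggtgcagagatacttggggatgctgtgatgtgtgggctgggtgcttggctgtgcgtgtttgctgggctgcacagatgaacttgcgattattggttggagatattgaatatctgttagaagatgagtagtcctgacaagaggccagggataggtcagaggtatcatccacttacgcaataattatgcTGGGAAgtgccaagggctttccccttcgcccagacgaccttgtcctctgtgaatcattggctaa
Gcnt4: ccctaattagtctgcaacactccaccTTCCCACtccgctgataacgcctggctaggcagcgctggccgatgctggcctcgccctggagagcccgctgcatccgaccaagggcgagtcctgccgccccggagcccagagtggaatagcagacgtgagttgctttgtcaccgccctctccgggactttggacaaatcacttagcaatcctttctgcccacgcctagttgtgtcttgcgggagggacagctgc
The St6gal1 window held TGGGAA, the Gcnt4 window held GTGGGAA, and the Muc4 and Muc20 windows held neither. TGGGAA occurred in 21.6% of 32851 promoter windows of this length and in 17.0% of the 106 windows of the members, and GTGGGAA in 5.4% and 2.8%. A match describes the letters of the window and shows no binding. The 4 windows shown are examples, and the matches among them do not stand for the share over the members. Promoter entries matched 78 of the 104 symbols.

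In the lumen, Muc4 and Muc20 had far higher values in both overexpressing groups than in wild type. Muc4, a membrane-tethered mucin of the apical surface, was 629, 638 and 228 in the wild-type lumen, 14235, 3737 and 2095 in E-OEX LE and 28589, 17426 and 22398 in U-OEx LE. All E-OEX values lay above all wild-type values, and all U-OEx values lay above all E-OEX values. Muc4 rose in E-OEX (log2 fold change 3.24 ± 0.68 (SE), adjusted p = 0.0185) and in U-OEx (log2 fold change 5.61 ± 0.44 (SE), adjusted p = 3.07e-05). The E-OEX call was lost without Ctrl-LE replicate 3 (adjusted p = 0.0917), E-OEX-LE replicate 1 (0.0661) or E-OEX-LE replicate 2 (0.0654). Muc4 entered both lists because LE was higher, so high LE values were selected for in wild type and E-OEX.

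Muc20, a smaller cell-surface mucin, was 45.6, 42 and 31.3 in the wild-type lumen, 1774, 833 and 307 in E-OEX LE and 2722, 2475 and 2537 in U-OEx LE. The 3 groups did not overlap, and the U-OEx libraries lay close together while the E-OEX libraries spread widely. It rose in E-OEX (log2 fold change 4.09 ± 0.63 (SE), adjusted p = 0.00517) and in U-OEx (log2 fold change 5.98 ± 0.27 (SE), adjusted p = 5.48e-06). In both genes E-OEX replicate 1 was the highest E-OEX library and replicate 3 the lowest. Muc20 entered the wild-type list because GE was higher and the E-OEX list because LE was higher. A low wild-type LE value and a high E-OEX LE value were thus selected for in Muc20. Muc4 (chr16:32735886-32782391, +) and Muc20 (chr16:32777419-32797435, −) run towards each other in GRCm38, and their ends overlap. They share 627 exon bases, 5.3% of the Muc4 exons and 15.6% of the Muc20 exons. Whether counting used strand is not given in the sources used here, so reads of the shared exons cannot be told apart. Muc3a, a further membrane-tethered mucin, did not pass in U-OEx (log2 fold change 1.89, adjusted p = 0.0734).

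**Figure D1:**
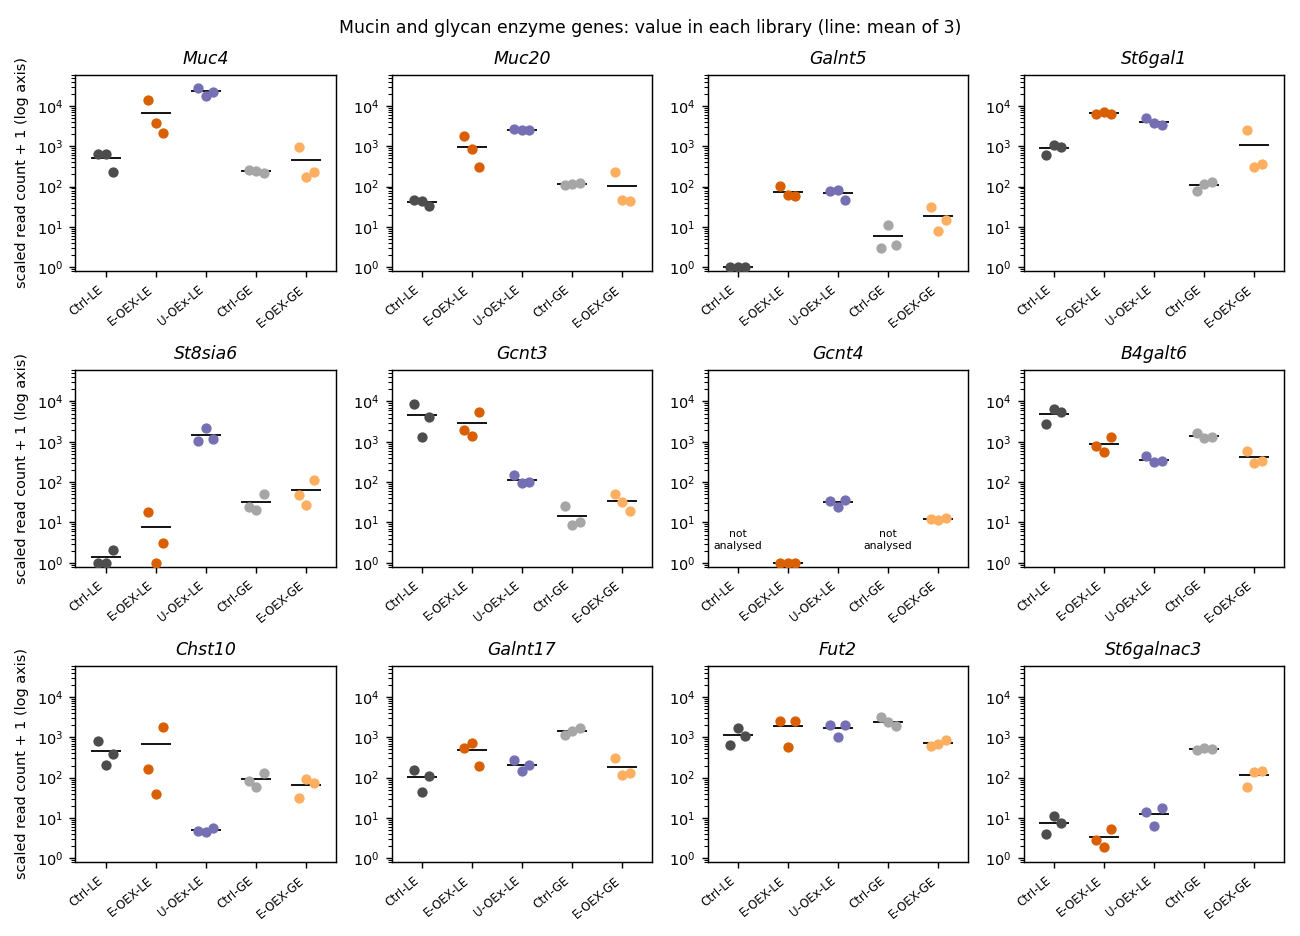
Scaled read count plus 1 (log axis) of 12 members in each of the 15 libraries by group, with 1 point per library and a line at the mean of the 3. Muc4, Muc20 and Galnt5 are higher in both overexpressing LE groups than in wild-type LE, St8sia6 is high in U-OEx LE alone among the LE groups, and Gcnt3 is low in U-OEx LE.

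Over the whole set, 7 of the 34 members tested passed between E-OEX LE and wild-type LE (20.6%), 6 higher and 1 lower, where 10.7% of all 2600 genes passed, 5.12% higher and 5.54% lower. A further 2 of the 36 shared members were under the filter on low values. The groups did not overlap for 14 of the 34 members and for 29.9% of all genes. The median log2 fold change was 0.23 for the members and -0.09 for all genes. The count fell to 3 without Ctrl-LE replicate 3, E-OEX-LE replicate 1 or E-OEX-LE replicate 2. Between U-OEx LE and wild-type LE, 36 of 57 members passed (63.2%), 20 higher and 16 lower, where 56.9% of all 5949 genes passed, 29.1% higher and 27.8% lower, so that the members' share was near the background. The groups did not overlap for 38 of the 57 members and for 63.8% of all genes, and the median was 0.58 against 0.09. Both comparisons use the same 3 wild-type libraries, so they are not independent of each other. The listing also bears on each gene. Where a gene was listed because GE was higher, a low LE value and a high GE value were selected for. Where LE was higher, the reverse was selected for.

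Markers of cell types differed between these groups, here summed over the markers listed in both groups set side by side. Over 6 shared glandular markers, E-OEX LE held 215 to 1321 and wild-type LE 49.7 to 92.2. Singly, 1 of the 6 passed as higher and 5 did not pass. E-OEX LE replicate 1, which had the highest Muc4, Muc20 and Galnt5 values of its group, also had the highest glandular sum, 1321 against 215 and 291 in replicates 2 and 3. Without it, Muc20 (log2 fold change 3.55, adjusted p = 0.0308) and Galnt5 (adjusted p = 0.0127) still passed and Muc4 did not (adjusted p = 0.0661). Over 7 shared glandular markers, U-OEx LE held 1040 to 1440 and wild-type LE 49.7 to 101. The U-OEx sum came from Foxa2, Lif, Cxcl15 and Wfdc3, while Prss29, Spink1 and Ttr were at 0 in every U-OEx library. Of the 6 tested singly, 4 passed as higher and 1 as lower. Over 3 shared leukocyte markers (Cd68, Adgre1 and Lyz2), U-OEx LE held 1413 to 2332 and wild-type LE 579 to 1219. Over 3 shared luminal markers, U-OEx LE held 5188 to 7698, below the 12887 to 13687 of wild-type LE. Over 4 shared general epithelial markers, U-OEx LE held 31571 to 45803 and wild-type LE 77523 to 87885. Of these 4, 3 passed as lower. The stromal sum in wild-type LE was 7769 in replicate 2 against 401 and 2466 in replicates 1 and 3. All these markers are gene sums, not cell counts. Their part in the changes was not tested. In bulk RNA, fewer cells of a type and less RNA per cell cannot be told apart.

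Among the enzymes that start O-glycans, Galnt5 was without reads in wild-type LE and present in the lumen of both overexpressing groups. Galnt5 (chr2:57997884-58045860, +) was 0 in all 3 libraries of the wild-type lumen, 102, 61.8 and 57.2 in E-OEX LE and 76.3, 80.0 and 45.1 in U-OEx LE. Every overexpressing LE library held it and no wild-type LE library did. Its exons share 5.3% of their bases with Ermn on the other strand. Against a floor of 3 reads per library, E-OEX exceeded wild type at least 20.2-fold (adjusted p = 0.00145) and U-OEx at least 20.8-fold (adjusted p = 3.98e-05). Galnt14 was 0 in all 3 libraries of wild-type LE and low, at 11.9, 14.2 and 8.64, in U-OEx LE, where it was at least 3.59-fold higher (adjusted p = 0.000469). Galnt5 and Galnt14 entered the wild-type list because GE was higher, so a low wild-type LE value was selected for. Galnt5 entered the E-OEX list because LE was higher, so a high E-OEX LE value was selected for.

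Of the 10 initiating enzymes tested in U-OEx LE, 4 rose (Galnt5, Galnt14, Galnt6 and Galnt12) and 3 fell (Galnt1, Galnt11 and Galnt18). Galnt1, a broadly expressed initiator, was 5403, 4489.9 and 5703 in wild-type LE and 1109, 1065 and 929 in U-OEx LE, and Galnt11 was 2939, 2327 and 3060.2 in wild-type LE and 637, 558 and 528 in U-OEx LE. Both sets of values were apart by a wide margin, with log2 fold change -2.35 ± 0.22 (SE), adjusted p = 7.16e-05 for Galnt1 and log2 fold change -2.29 ± 0.23 (SE), adjusted p = 0.000107 for Galnt11. Galnt18 fell by less (-1.61, adjusted p = 0.00101). Galnt1 and Galnt11 entered the wild-type list because LE was higher, so high wild-type LE values were selected for. Galnt18 entered it because GE was higher. Galnt12 was 314, 425 and 259 in the wild-type lumen, 1095, 1212 and 773 in E-OEX LE and 819.7, 989 and 805 in U-OEx LE, with neither overexpressing group overlapping wild type. It rose in U-OEx (log2 fold change 1.39 ± 0.26 (SE), adjusted p = 0.00254), and the E-OEX value fell short of the threshold (1.45, adjusted p = 0.0546). Galnt6 was 24.9, 373 and 77.1 in wild-type LE, where replicate 2 alone was high, and 505, 588 and 629 in U-OEx LE (2.63, adjusted p = 0.0211). That call was lost without Ctrl-LE replicate 3 (adjusted p = 0.0809) or any 1 U-OEx library (0.0605 to 0.0754), and in edgeR (0.0664). Of the Galnt6 exons, 11.4% overlap the antisense Galnt6os.

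The 3 Gcnt branching enzymes tested all fell in U-OEx LE. All 3 entered the wild-type list because LE was higher, so high wild-type LE values were selected for. Gcnt3, which makes branched mucin-type cores, was 8870.2, 1295 and 4033 in the wild-type lumen, 1990.0, 1418 and 5489.7 in E-OEX LE and 148, 91.5 and 101 in U-OEx LE. E-OEX values lay within the wild-type range and U-OEx values far below both. It fell in U-OEx (log2 fold change -5.03 ± 0.66 (SE), adjusted p = 0.000391), and E-OEX did not pass (-0.70, adjusted p = 0.598). Gcnt1, the widely expressed core branching enzyme, was 2858, 4154 and 4709 in wild-type LE and 629, 683 and 1202 in U-OEx LE (-2.27, adjusted p = 0.000407). Gcnt2, which branches lactosamine chains, was 5321, 5523 and 4630.5 in wild-type LE and 1812, 1169 and 1504 in U-OEx LE (-1.83, adjusted p = 0.000407), again without overlap.

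Chain-extending enzymes moved in both directions in U-OEx LE, 3 higher and 5 lower of 10 tested. B4galnt1, which makes the gangliosides GM2 and GD2, was 139.8, 37.9 and 31.3 in wild-type LE and 3047, 1778 and 1890.2 in U-OEx LE (log2 fold change 5.25 ± 0.59 (SE), adjusted p = 0.000172). Every U-OEx value exceeded every wild-type value by more than the spread of either group. Its exons share 20.7% of their bases with Slc26a10 on the other strand. B3gnt8, which extends lactosamine chains, was 22.8, 41 and 34.6 in the wild-type lumen, 110.5, 222 and 144 in E-OEX LE and 187, 378 and 199 in U-OEx LE, with both overexpressing groups above wild type, and 18.1% of its exon bases lie in Bckdha on the other strand. It rose in U-OEx (log2 fold change 2.86 ± 0.39 (SE), adjusted p = 0.000476) and in E-OEX (log2 fold change 2.05 ± 0.55 (SE), adjusted p = 0.0442). The E-OEX call was lost when any 1 library of the 6 was left out (adjusted p = 0.0553 to 0.173), with the replicate block (0.0552) and after quantile normalization (0.0556). B3gnt6, which makes the core of intestinal-type mucin chains, was 1.04, 1.02 and 1.12 in wild-type LE, which is 1 read per library. In U-OEx LE it was 14.7, 4.44 and 6.72, or at least 2.68-fold more (adjusted p = 0.0153). B4galnt1, B3gnt8 and B3gnt6 entered the wild-type list because GE was higher, so low wild-type LE values were selected for.

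Of the chain-extending enzymes, B3gnt5 and B4galt6 fell most in U-OEx LE. Both, like B4galt4 and B4galt1 below, entered the wild-type list because LE was higher, so high wild-type LE values were selected for. B3gnt5, which starts the lacto-series glycolipids, was 3613, 340.0 and 1403 in the wild-type lumen, 129.6, 5.45 and 1051 in E-OEX LE and 21.1, 10.7 and 15.4 in U-OEx LE. U-OEx was low throughout, while the E-OEX libraries ran from below its range to within that of wild type. It fell in U-OEx (log2 fold change -6.24 ± 0.81 (SE), adjusted p = 0.000363), and E-OEX did not pass (-3.82, adjusted p = 0.156). B4galt6, a lactosylceramide synthase, was 2705, 6318 and 5521 in the wild-type lumen, 779.6, 556 and 1299.6 in E-OEX LE and 434, 307 and 327 in U-OEx LE, and neither overexpressing group overlapped wild type. It was the 1 member that fell in E-OEX LE (log2 fold change -2.63 ± 0.47 (SE), adjusted p = 0.0116), a call lost without Ctrl-LE replicate 3 (adjusted p = 0.0703), E-OEX-LE replicate 1 (0.0599) or E-OEX-LE replicate 2 (0.0557). In U-OEx it fell further (log2 fold change -3.71 ± 0.31 (SE), adjusted p = 4.75e-05). B3gnt7 (-1.29, adjusted p = 0.0101) and B4galt4 (-1.15, adjusted p = 0.00655) were also lower in U-OEx. B4galt1, the main galactosyltransferase, had a small fall (-0.78, adjusted p = 0.0131) that was lost without Ctrl-LE replicate 3, U-OEx-LE replicate 2 or U-OEx-LE replicate 3 (adjusted p = 0.0548 to 0.0575) and turned to 0.16 after quantile normalization.

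Among the N-glycan branching enzymes, Mgat3, which adds the bisecting GlcNAc, rose in U-OEx LE and Mgat5, which adds a further antenna, fell. Mgat3 was 149, 205 and 89.4 in wild-type LE and 472, 1131 and 294 in U-OEx LE (1.92, adjusted p = 0.014, and 0.0625 without Ctrl-LE replicate 3). Mgat5 was 900.2, 484 and 726 in wild-type LE and 362, 359 and 329 in U-OEx LE (-0.98, adjusted p = 0.0267), and its call was lost without Ctrl-LE replicate 1 or 3 or any 1 U-OEx library (adjusted p = 0.0567 to 0.0796). Neither pair of groups overlapped. Mgat3 and Mgat5 entered the wild-type list because LE was higher, so high wild-type LE values were selected for. Mgat2 (0.21, adjusted p = 0.544) and Mgat4a (0.54, adjusted p = 0.404) did not pass.

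Sialyltransferases held the largest single difference. St8sia6, which adds sialic acid to sialic acid on O-glycans, was 0, 0 and 1.12 in the wild-type lumen, 17.3, 0 and 2.16 in E-OEX LE and 1071, 2175 and 1171 in U-OEx LE. Wild type was at the floor, 1 E-OEX library was above it, and U-OEx was high in all 3. It was at least 454-fold higher in U-OEx than in wild type (adjusted p = 5.76e-06), and E-OEX did not pass (adjusted p = 0.384). St8sia6 entered the wild-type and E-OEX lists because GE was higher, so low LE values were selected for in both. St6gal1 entered both lists because LE was higher, so high LE values were selected for. St6gal1, which caps N-glycans with sialic acid, was 609, 1102 and 984 in the wild-type lumen, 6313, 6939 and 6242 in E-OEX LE and 5079, 3799.9 and 3407 in U-OEx LE. Both overexpressing groups were clear of wild type (log2 fold change 2.72 ± 0.39 (SE), adjusted p = 0.0043 in E-OEX; log2 fold change 2.19 ± 0.26 (SE), adjusted p = 0.00025 in U-OEx).

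Of 14 sialylation entries tested in U-OEx LE, 5 rose and 2 fell. St8sia4, a polysialyltransferase, was 3.11, 2.05 and 10.1 in wild-type LE and 44.1, 32 and 134 in U-OEx LE (3.49, adjusted p = 0.00401), and St3gal4 was 337, 691 and 462 in wild-type LE and 1445, 1050.4 and 915 in U-OEx LE (1.21, adjusted p = 0.00965). St3gal6 also passed (1.63, adjusted p = 0.029), though not without Ctrl-LE replicate 1 or 3 or U-OEx-LE replicate 2 or 3 (adjusted p = 0.0576 to 0.101), after quantile normalization (0.0782) or in 1 fit over all 5 groups (0.094), and 26.0% of its exon bases are shared with Dcbld2 on the other strand. Those that fell were St8sia5, a ganglioside sialyltransferase, and St6galnac1, which makes the sialyl-Tn antigen. St8sia5 was 40.4, 152 and 129 in wild-type LE and 0 in all 3 libraries of U-OEx LE, at least 38.1-fold lower (adjusted p = 6e-05). St6galnac1 was 67.3, 109.6 and 181 in wild-type LE and 1.84, 3.55 and 0.96 in U-OEx LE (log2 fold change -5.27 ± 0.55 (SE), adjusted p = 0.000118). Both were thus at or near the floor in U-OEx. St8sia5, St6galnac1 and St3gal4 entered the wild-type list because LE was higher, so high wild-type LE values were selected for. St8sia4 and St3gal6 entered it because GE was higher, so low ones were selected for.

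Of the fucosyltransferases, Fut9 and Fut8 rose and Fut4 fell in U-OEx LE. Fut9, which builds the Lewis x structure, was 481, 288 and 353 in wild-type LE and 3816, 2853 and 3463 in U-OEx LE (log2 fold change 3.17 ± 0.29 (SE), adjusted p = 7.04e-05). Fut4, which can build the same structure, was 724, 606 and 1149 in wild-type LE and 325, 265 and 219 in U-OEx LE (-1.60, adjusted p = 0.00298). The groups did not overlap for either gene. Fut9 and Fut4 entered the wild-type list because LE was higher, so high wild-type LE values were selected for. Fut8, which adds core fucose to N-glycans, was 192, 218 and 235 in wild-type LE and 572, 430.1 and 335 in U-OEx LE (adjusted p = 0.0164), and not past the threshold after quantile normalization (adjusted p = 0.0776) or without U-OEx-LE replicate 1 (0.0518). Fut2, which makes the terminal fucose of secretor antigens, was 645, 1750.3 and 1049 in the wild-type lumen, 2569, 559 and 2557 in E-OEX LE and 1999, 1046 and 1979 in U-OEx LE, overlapping throughout, and passed in neither.

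Of the sulfotransferases, Chst15, Chst8 and Chst7 rose and Chst10 fell in U-OEx LE. Chst15, which makes highly sulfated chondroitin, was 8.29, 12.3 and 14.5 in wild-type LE and 573, 452 and 776 in U-OEx LE (log2 fold change 5.54 ± 0.36 (SE), adjusted p = 1.62e-05), with 17.9% of its exon bases in an antisense gene. Chst8, which sulfates terminal GalNAc, was 10.4, 3.07 and 4.47 in the wild-type lumen, 55.7, 80.8 and 35.6 in E-OEX LE and 35.8, 64 and 47.1 in U-OEx LE, and neither overexpressing group overlapped wild type. It passed in U-OEx (2.92, adjusted p = 0.00303) and in E-OEX (2.97, adjusted p = 0.0306), the latter not without Ctrl-LE replicate 2 (adjusted p = 0.0752), Ctrl-LE replicate 3 (0.134), E-OEX-LE replicate 1 (0.0977) or E-OEX-LE replicate 2 (0.132). Chst7 was 45.6, 43 and 35.8 in the wild-type lumen, 263, 234 and 90.7 in E-OEX LE and 298, 235 and 196 in U-OEx LE. It passed in U-OEx (2.49, adjusted p = 0.000432) and not in E-OEX (1.91, adjusted p = 0.0615). Chst10, which makes the HNK-1 epitope, was 796, 207 and 387 in the wild-type lumen, 161, 37.2 and 1850.0 in E-OEX LE and 3.68, 3.55 and 4.8 in U-OEx LE. U-OEx was low in every library (log2 fold change -6.35 ± 0.57 (SE), adjusted p = 6e-05), and the E-OEX libraries spread on both sides of the wild-type range (adjusted p = 0.627). Chst15 and Chst8 entered the wild-type list because GE was higher, so low wild-type LE values were selected for. Chst7 and Chst10 entered it because LE was higher, so high wild-type LE values were selected for.

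**Figure D2:**
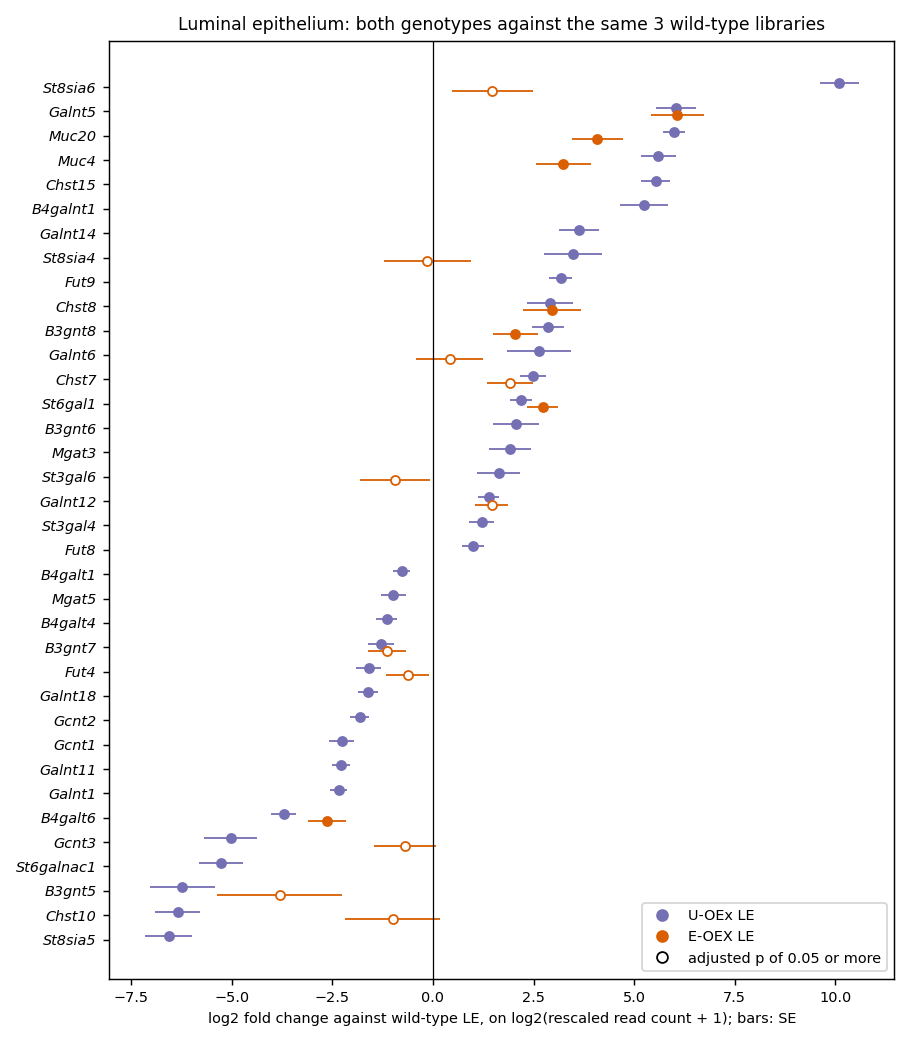
Log2 fold change against wild-type LE (x axis, on log2 of rescaled read count plus 1, bars the SE) of the 36 members that passed in U-OEx, which include the 7 that passed in E-OEX, for U-OEx LE and, where listed, E-OEX LE. Open points did not pass, and both genotypes are set against the same 3 wild-type libraries.

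The direct comparison of the overexpressing lumens tested 42 members, of which 9 passed (21.4%), 4 higher and 5 lower in U-OEx, where 15 percent of 4275 genes passed, 6.97% higher and 8.05% lower. The values were apart for 24 of the 42 members and for 38.2% of all genes, and the median was -0.28 against 0.06. St8sia6 was the member with the largest difference (log2 fold change 8.48 ± 0.92 (SE), adjusted p = 0.00335). Gcnt4, a branching enzyme not analysed in wild type, was 0 in all 3 libraries of E-OEX LE and 32.2, 23.1 and 35.5 in U-OEx LE. That is at least 9.45-fold more (adjusted p = 0.00335), and 10.5% of its exon bases lie in an antisense gene. Gcnt4 entered the E-OEX list because GE was higher, so a low E-OEX LE value was selected for. Gcnt3 went the other way (log2 fold change -4.61 ± 0.51 (SE), adjusted p = 0.00335). U-OEx was also higher in Galnt6 (1.94, adjusted p = 0.0133) and Muc4 (2.08, adjusted p = 0.0464), and lower in Chst10 (-5.63, adjusted p = 0.0181), Chst9 (-3.76, adjusted p = 0.0147), B4galt6 (-1.36, adjusted p = 0.0471) and B3gnt3 (-1.25, adjusted p = 0.0368). The count was 3 without U-OEx-LE replicate 1 or 3 and 5 without replicate 2. The 5 members lower in U-OEx entered the E-OEX list because LE was higher, so high E-OEX LE values were selected for. Without any 1 U-OEx library the calls of Chst10, Muc4, B4galt6 and B3gnt3 were lost (adjusted p = 0.0591 to 0.173), those of Galnt6 and Chst9 were lost without replicate 1 or 3 (0.0533 to 0.0777), and those of Muc4, B4galt6 and B3gnt3 also without E-OEX-LE replicate 2 or 3 (0.0563 to 0.111), B4galt6 in addition without E-OEX-LE replicate 1 (0.0509). B4galt6 was also lost with the replicate block (adjusted p = 0.0616). In edgeR the calls of Muc4 (0.0988), B4galt6 (0.0545) and B3gnt3 (0.0514) were lost. Muc4 and B4galt6 were lost on deposited values (0.0538 and 0.066) and with a pseudocount of 0.1 (0.0614 and 0.0548), B3gnt3 after quantile normalization (0.0513), and B4galt6 and B3gnt3 in 1 fit over all 5 groups (0.0542 and 0.0542).

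Gland and lumen of wild-type mice differed in listed genes of every family. The wild-type list was selected for a difference between the epithelia, so the count says nothing about the members: 57 of 59 passed, 30 with more in GE and 27 with more in LE, where 97 percent of the listed genes passed, 56.6% higher and 40.5% lower in GE. The epithelia did not overlap for 57 of the 59 members and for 95.9% of listed genes. In this comparison the values were used as deposited. Gcnt3 had the largest difference towards LE, with 24.3, 7.58 and 9.52 in wild-type GE, far under every LE value (log2 fold change -8.09 ± 0.72 (SE), adjusted p = 0.000105). All 3 listed Gcnt genes were higher in LE.

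Next in LE came St6galnac1, 0 in all 3 libraries of wild-type GE and at least 42.8-fold lower there, and St8sia5, at least 38.3-fold lower. B3gnt5 (-5.84), Chst9 (-4.17), Galnt12 (-3.23), Galnt6 (-3.11), St6gal1 (-3.05) and Fut4 (-3.01) were also lower in GE on the log2 scale. Chst4, known for sulfated selectin ligands, was 0 in all 3 libraries of wild-type GE and 2.07, 190.5 and 48.1 in LE. LE replicate 1 was itself near the floor.

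Higher in wild-type GE were St6galnac3, with 479, 534 and 502 against 3.11, 10.2 and 6.71 in LE (log2 fold change 6.16 ± 0.42 (SE), adjusted p = 4.41e-05), and St6galnac5, with 548, 574 and 441 against 6.22, 15.4 and 15.6 (5.37). Every GE value was far above every LE value, and both enzymes add sialic acid to GalNAc. Galnt14 was at least 16.1-fold, B3gnt6 at least 21.9-fold and St8sia6 at least 9.61-fold higher in GE. Galnt16 (5.19), Chst8 (5.07), B4galnt1 (4.29), Galnt17 (3.95) and Fut10 (3.75) followed. Galnt5 was 1.95, 10.4 and 2.6 in GE, at least 1.57-fold higher than in LE, and lost its call after quantile normalization (adjusted p = 0.0804) and in DESeq2 (0.0622).

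Markers of stroma, smooth muscle and endothelium ran with GE. Stromal markers summed to 34483 to 99955 in wild-type GE and 401 to 7769 in LE (6 of 8 listed), smooth muscle markers to 2734 to 4878 and 81.6 to 230 (5 of 6), and endothelial markers to 2392 to 3944 and 173 to 215 (6 of 6). In E-OEX the stromal sums were 79848 to 94959 in GE and 522 to 2769 in LE (8 of 8), and the smooth muscle sums 14173 to 17508 and 17.3 to 68.5 (6 of 6). No stromal marker was at 0 in a GE library. Leukocyte markers were mixed in wild type, with 2 of the 3 listed higher in GE and 1 lower. Cd68 was 219, 278 and 221 in wild-type LE and 62.3, 75.8 and 45 in GE. In E-OEX only Cd68 was listed, at 178 to 267 in LE and 84.1 to 98.9 in GE. General epithelial sums were 26292 to 27367 in wild-type GE and 77523 to 87885 in LE (4 of 7). The part of all these markers in the members that were higher in GE was not tested.

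In E-OEX, 38 of 44 listed members passed between GE and LE, 21 higher and 17 lower in GE, where 91.6% of the listed genes passed, 61.5% higher and 30.1% lower. The epithelia did not overlap for 36 of the 44 members and for 89.9% of listed genes. The split depended on scaling, with 14 higher and 19 lower on TMM-rescaled reads and 12 and 20 after quantile normalization, as the median of all genes moved from 1.75 to 1.07 and 0.43. Gcnt3 again led towards LE, with 49.1, 31 and 18.7 in E-OEX GE (log2 fold change -6.30 ± 0.59 (SE), adjusted p = 0.000107). Chst4 (at least 8.77-fold lower in GE), Muc4 (-3.83), Chst9 (-3.83), St6gal1 (-3.31), Muc20 (-3.30), B3galt5 (-3.27), Galnt6 (-2.77) Galnt12 (-2.31) and an entry of St6galnac2 were lower in GE too. Towards GE the largest were Galnt16 (5.88), St6galnac3 (5.14), Fut10 (4.70), St6galnac6 (4.53) and Galnt15 (3.99), followed by St8sia4 (3.91), St6galnac4 (3.74), St8sia2 (at least 6.35-fold) and B3galt1 (at least 4.05-fold). Gcnt4 was 11, 10.3 and 12.2 in E-OEX GE and 0 in all 3 libraries of E-OEX LE, at least 3.85-fold higher. St8sia6 was 47.1, 26.4 and 112 in E-OEX GE (3.78, adjusted p = 0.0109), a call lost without E-OEX-GE replicate 3 (adjusted p = 0.0548), in DESeq2 (0.0586) and after quantile normalization (0.055).

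The gland to lumen difference kept its direction between genotypes in 32 of the 36 members listed in both, and 4 had opposite signs. Over all 2933 genes listed in both, 96.4% kept their direction, and both lists were selected for a difference between the epithelia. Whether genotype changed the difference was tested as an interaction, in which 4 of 36 passed (11.1%), all lower, where 10.7% of 2933 genes passed, 5.83% higher and 4.91% lower. Galnt17 was 152, 44 and 107 in wild-type LE and 1169, 1403 and 1689 in wild-type GE, but 530.4, 719 and 191 in E-OEX LE and 304, 115 and 132 in E-OEX GE. The gland was far above the lumen in wild type, and the E-OEX groups overlapped (interaction log2 fold change -5.27 ± 0.81 (SE), adjusted p = 0.00166). Muc20 was 111, 114 and 121 in wild-type GE, above LE, and 224, 46 and 44 in E-OEX GE, below LE (interaction log2 fold change -4.83 ± 0.95 (SE), adjusted p = 0.00663).

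Galnt5 turned in the same way, with 31, 6.9 and 14.1 in E-OEX GE below the E-OEX LE values (interaction adjusted p = 0.00677). The size of its interaction is uncertain, since wild-type LE held no reads and wild-type GE replicates 1 and 3 no more than 3. The log2 value was -4.52, and it ran from -8.24 to -3.91 over the alternatives, in all of which it passed. Chst8 was 283, 104 and 318 in wild-type GE and 483, 67.8 and 54.3 in E-OEX GE, where replicate 1 alone was high (interaction log2 fold change -3.92 ± 1.10 (SE), adjusted p = 0.0384). The Chst8 call was lost in edgeR (adjusted p = 0.0825) and without Ctrl-LE replicate 2 or 3, Ctrl-GE replicate 1 or 3, E-OEX-LE replicate 1 or 2 or E-OEX-GE replicate 2 or 3 (0.0608 to 0.103). Without E-OEX-GE replicate 1, the library with the high luminal markers, 6 members passed.

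**Figure D3:**
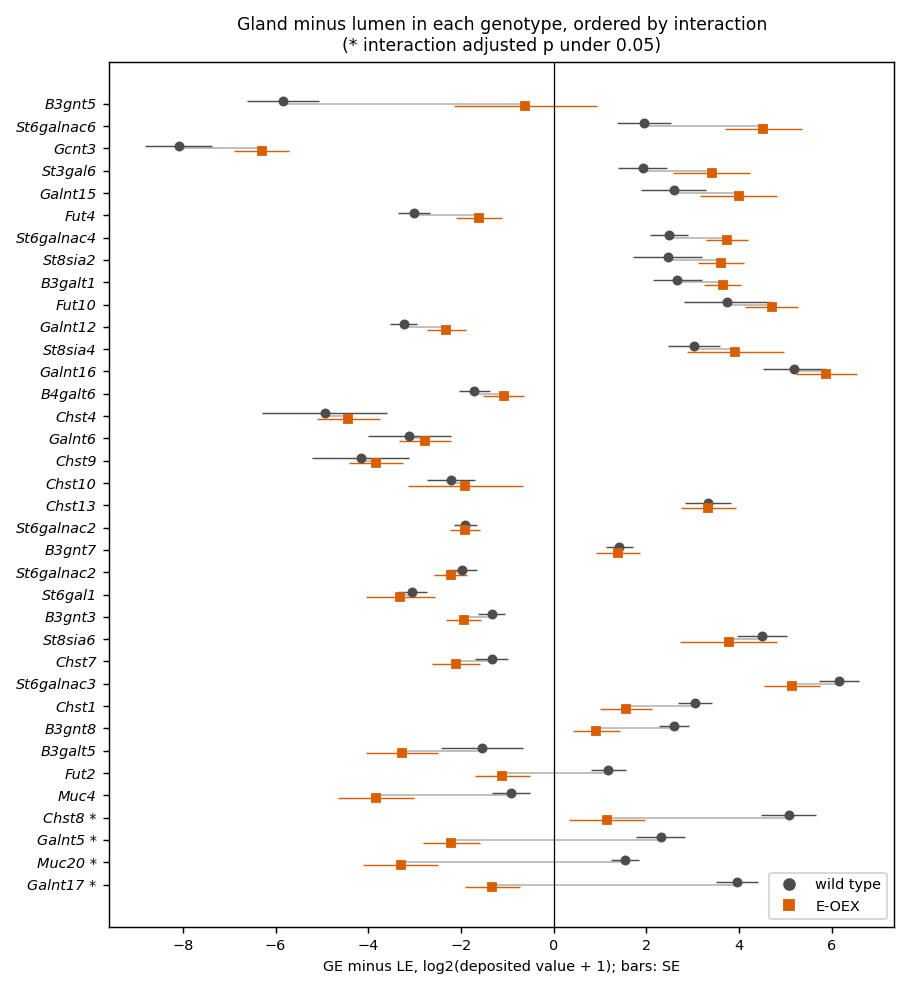
Difference of GE minus LE (x axis, log2 of deposited value plus 1, bars the SE) in wild type and in E-OEX for the 36 members listed in both, ordered by the interaction. The 4 starred members at the bottom, Chst8, Galnt5, Muc20 and Galnt17, passed the interaction test.

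Within the gland itself, 8 of 35 members passed between E-OEX and wild type (22.9%), 2 higher and 6 lower, where 23.5% of 2851 genes passed, 9.72% higher and 13.8% lower, again a share near that of the members. On the deposited scale, where the median of all genes was 0.50 and not 0.05, the split was 7 higher and 5 lower. Groups did not overlap for 13 of the 35 members and for 40.5% of all genes. Galnt17 fell most (log2 fold change -3.53 ± 0.40 (SE), adjusted p = 0.000257). St6galnac3 was 59.1, 140.3 and 148 in E-OEX GE below each wild-type value (log2 fold change -2.69 ± 0.33 (SE), adjusted p = 0.000445). Fut2 was 3119, 2349.8 and 1885 in wild-type GE and 615, 689.8 and 866 in E-OEX GE, without overlap (log2 fold change -2.21 ± 0.25 (SE), adjusted p = 0.000273).

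B4galt6 was 1636, 1264 and 1303 in wild-type GE and 595, 301 and 332 in E-OEX GE (-2.30, adjusted p = 0.00107), lower as it was in the lumen. Chst1, a sulfotransferase of keratan-type chains, was 133, 188 and 147 in wild-type GE and 56.1, 36.8 and 62.8 in E-OEX GE (-2.05, adjusted p = 0.0016). B3gnt7, which extends such chains, was 728, 983 and 878 in wild-type GE and 237, 658 and 485 in E-OEX GE (-1.48, adjusted p = 0.0116, but 0.0638 on the deposited scale and 0.0538 without Ctrl-GE replicate 1). These 3 were lower in every E-OEX library than in any wild-type library.

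Galnt12 rose, from 33.1, 31.3 and 37.2 in wild-type GE to 326, 162 and 156 in E-OEX GE (log2 fold change 2.09 ± 0.39 (SE), adjusted p = 0.00427). Chst9, which sulfates terminal GalNAc, was 5.84, 0 and 0.865 in wild-type GE and 23, 9.2 and 26.2 in E-OEX GE (2.69, adjusted p = 0.0358), and lost its call without Ctrl-GE replicate 2 or 3 or E-OEX-GE replicate 1 or 3 (adjusted p = 0.076 to 0.111), in edgeR (0.0628), with a pseudocount of 0.1 (0.0694) and in 1 fit over all 5 groups (0.0872). St6gal1 was 76.9, 118 and 126 in wild-type GE and 2555, 301 and 363 in E-OEX GE (2.17, adjusted p = 0.0565), and Muc4 was 253, 247 and 215 in wild-type GE and 932, 175 and 235 in E-OEX GE (0.04, adjusted p = 0.971). In both genes E-OEX GE replicate 1 was far above replicates 2 and 3, the library whose luminal markers were also high, and their part in these values was not tested. Without it, 12 members passed, 3 higher and 9 lower. Over the 6 glandular markers listed in both, E-OEX GE held 5873 to 8610 and wild-type GE 22856 to 30568. The 6 did not move together, since 4 passed as lower and 2 did not pass. Foxa2 was 2227, 2584 and 2282 in wild-type GE and 2260, 1941 and 2593 in E-OEX GE. Wfdc3 was 1861, 1834 and 1916 in wild-type GE and 1481, 3198 and 1965 in E-OEX GE. Smooth muscle markers moved with genotype in the gland: 4 of 5 tested (Myh11, Acta2, Cnn1 and Actg2) passed as higher in E-OEX GE, with a median log2 fold change of 1.66 over the 5. Their summed values were 14149.8 to 17496 against 2734 to 4878 in wild-type GE. Their part in the members' differences was not tested.

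The U-OEx tables, which were not selected, gave the levels of the whole set in the lumen, here per kilobase of exon so that genes can be compared. Of 104 members, 52 had a mean value of at least 100, and 6 held at most 3 reads in every library. Muc4 was the highest member, at 1939.6 per kilobase, above Mgat4b (926), B4galt1 (923) and St6gal1 (833). Among mucins, Muc20 (640.1) and Muc13 (310.2) came next, both membrane-tethered.

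The 38 members analysed in U-OEx alone included 18 with a mean of at least 100. Mgat4b, which starts a further antenna of N-glycans, had a mean value of 2517 ± 47.1 (SD, n = 3), and Mgat1, which starts complex N-glycans, 906 ± 50.9. B4galt5, a second lactosylceramide synthase, was 1666 ± 311 and B4galt3 1094 ± 103. Muc13 was 943 ± 251 and the gel-forming Muc5b 1426 ± 127. All 6 were well above the floor in each library.

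Galnt7, which acts on sites already bearing GalNAc, was 949 ± 199 and Galnt4 546 ± 73.7. St3gal1, which caps the core galactose of O-glycans, was 2403 ± 538 and St3gal3 107 ± 41.5. Chst11 and Chst12, which sulfate chondroitin, were 1586 ± 593 and 132 ± 64.8. Fut11 was 381 ± 52.2, Gcnt7 17.5 ± 1.08 and Fut1, a relative of Fut2, 19.2 ± 14.1, the last with a spread near its mean. None of these genes was compared with wild type.

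**Figure D4:**
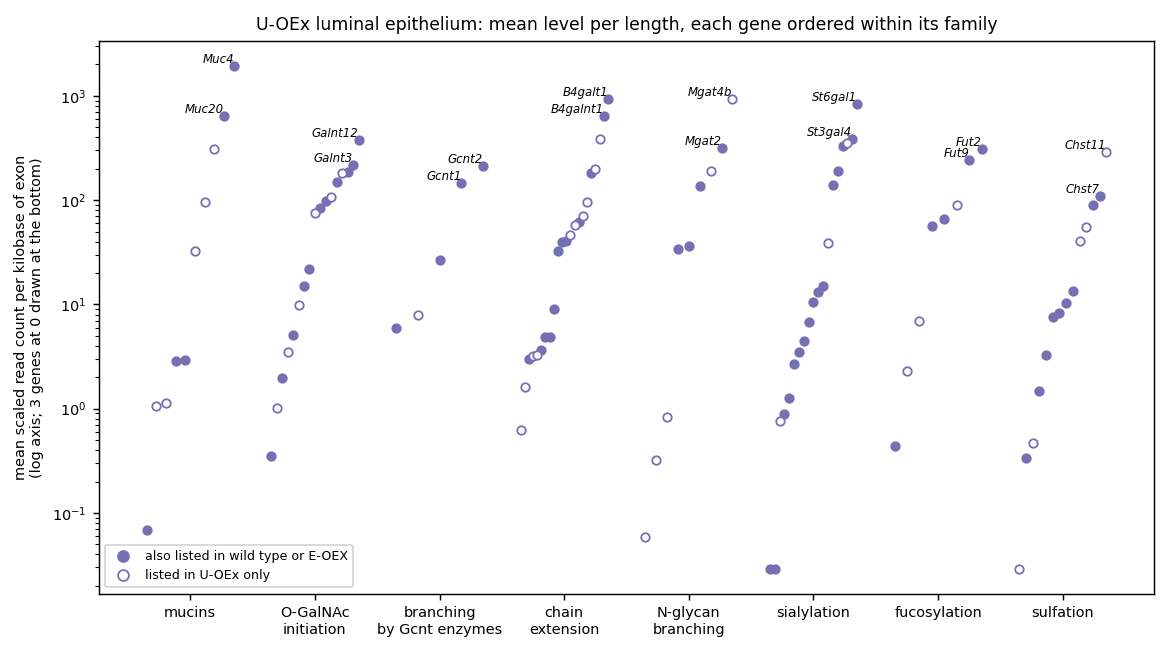
Mean scaled read count per kilobase of exon (log axis) in U-OEx LE for the 104 members by family, each family ordered from low to high, with the 2 highest named. Filled points were also listed in wild type or E-OEX and open points in U-OEx alone, and Muc4 is the highest of all.

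Other genes of glycan synthesis were followed in lists by function. In U-OEx LE, where 56.9% of all genes passed, 2 of 12 sugar-donor and transporter genes rose and 2 fell, with Fuk, a fucose kinase, lower (-2.65, adjusted p = 8.79e-05) and Gmds, of GDP-fucose synthesis, higher (1.54, adjusted p = 0.00647). Of 11 glycosaminoglycan genes, 6 rose and 2 fell, against 29.1% and 27.8% of all genes, with Csgalnact1 (6.25, adjusted p = 8.96e-05), which starts chondroitin chains, and the hyaluronan synthase Has2 (4.91, adjusted p = 0.00151) the highest. Among the Notch-modifying transferases, the fringe enzymes Lfng (2.02, adjusted p = 0.00594) and Mfng (1.36, adjusted p = 0.0437) rose and Rfng fell (-1.35, adjusted p = 0.00607), of 4 tested. B3galnt1, globoside synthase, fell in E-OEX LE (-2.82, adjusted p = 0.0328) and in U-OEx LE (-3.70, adjusted p = 0.000736).

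In the gland, the E-OEX libraries were lower than wild type in Papss2 (-3.49, adjusted p = 8.62e-05), which makes the sulfate donor, in Galntl6 (adjusted p = 0.00111), a relative of the Galnt enzymes, and in Man1a (-2.31, adjusted p = 0.000289), which trims N-glycans.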

How the data were processed

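RNeasy-purified RNA went into NEBNext Ultra libraries, per the labels' protocols, in 5 groups of 3. The submitters' processing notes name the builds GRCm38 and mm10; the aligner, the counting tool and its use of strand are not given in the sources used here. The deposited values are treated as a signal: whole reads divided by 1 factor per library, as read from the values, which came within 0.01 of whole reads for 100% of them. Reads were recovered that way. Genes averaging 1 or more were tested on log2(value + 1) with limma 3.58.1 (R 4.3.3, mean-variance trend, Benjamini-Hochberg adjustment over all genes). GE against LE and the interaction used deposited values; comparisons between genotypes used reads of shared genes rescaled by TMM (edgeR 4.0.16), since the tables appear to have been scaled separately. TMM rests on most shared genes being stable. Between U-OEx LE and wild-type LE, however, 56.9% of the shared genes tested passed, 29.1% higher and 27.8% lower. Whether the assumption held there was not tested. A group at 3 reads or fewer in every library was at the floor. Alternatives included edgeR, DESeq2 1.42.0, other pseudocounts, filters and scalings, a replicate block and leaving out each library. The test was checked on simulated data. Coordinates are from GENCODE M21 (GRCm38) and promoters from RefSeq (GRCm38.p6). Members named are Galnt5, St8sia6, Gcnt3 and Gcnt4, all that passed a comparison between genotypes or the interaction, the 10 largest in each direction for GE against LE, and the 2 highest per kilobase in each family for U-OEx alone. The members and gene lists were chosen with earlier results of these data known.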

Additional observations from a re-analysis of the deposited data

Results flagged for a closer look

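For 4 members the effect of the E-OEX genotype differed between glandular and luminal epithelium by the interaction test (limma, 36 members tested, 10.7% of all 2933 genes past the threshold). The genotype effect in GE minus that in LE was -5.27 for Galnt17, -4.83 for Muc20, -4.52 for Galnt5 and -3.92 for Chst8, on the log2 scale. The Galnt5 value rests on a wild-type LE group without reads and ran from -8.24 to -3.91 over the alternatives, so its size is uncertain. The Chst8 call was lost in 9 of 21 alternatives (limma or edgeR adjusted p up to 0.103), and in E-OEX GE its replicate 1 alone was high. Galnt17 was higher in GE than in LE in all wild-type libraries and overlapped between the epithelia in E-OEX. Muc20 and Galnt5 were higher in GE than in LE in all wild-type libraries and lower in GE in all E-OEX libraries. Luminal markers were highest among the GE libraries in E-OEX replicate 1, and their part in these differences was not tested.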

How the results depend on the processing

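Of 115 results for single genes, 94 kept their direction and their call under every alternative run. Leaving out 1 library ended a call in 71 cases and other alternatives in 26, and 1 value reversed: B4galt1 in U-OEx LE against wild-type LE was 0.16 after quantile normalization. In 1 fit over all 5 groups, which tests only genes listed in all tables, 33 of 35 members passed for wild-type GE against LE (57 of 59 as reported), 18 of 35 for U-OEx LE against wild-type LE (36 of 57) and 15 of 34 for E-OEX LE against wild-type LE (7 of 34). The first 2 of these had fewer members to test by construction. DESeq2 gave 11 for E-OEX LE against wild-type LE and 14 for U-OEx LE against E-OEX LE (9). Leaving out 1 library gave 3 to 10 for E-OEX LE against wild-type LE and 3 to 11 for U-OEx LE against E-OEX LE. The cause of these shifts was not tested. With the replicate number as a replicate block, the B4galt6 and B3gnt8 calls named in the report were lost and the counts were 58, 37, 7, 9, 37, 8 and 5 against 57, 38, 7, 8, 36, 9 and 4, in the order wild-type GE against LE, E-OEX GE against LE, E-OEX LE, E-OEX GE and U-OEx LE against wild type, U-OEx LE against E-OEX LE, and the interaction. The numbers did not pair the libraries: in no comparison did every same-numbered pair correlate above 0.1, and 1 or 2 of 3 libraries correlated best with their own number. Depth limits genes near the floor of 3 reads, for which folds are bounds.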

Other observations

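The gel-forming mucin genes Muc6, Muc2, Muc5ac and Muc5b lie in a row on chromosome 7 (GRCm38), with no protein-coding gene between neighbours and gaps of 35021, 34279 and 19839 bases. In U-OEx LE they differed widely in level. Muc5b, at chr7:141839070-141873084, was 1513, 1486 and 1280.3 and Muc5ac, at chr7:141788972-141819231, was 343, 403 and 295. Muc2, the main intestinal mucin, was 0, 4.44 and 18.2 and Muc6, a mucin of gastric glands, was 10.1, 3.55 and 18.2. Per kilobase of exon the means were 95.3 for Muc5b, 32.3 for Muc5ac, 1.14 for Muc6 and 1.06 for Muc2. These genes were not analysed in wild type or E-OEX, so the values describe U-OEx alone.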
